A study of Sus scrofa with 9 samples.

Results

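The pentose phosphate pathway was followed in mature pig (Sus scrofa) oocytes through 6 listed enzyme genes: PGLS, PGD, RPIA, RPE, TKT and TALDO1. They were chosen by the gene names in the deposited table, and 5 of the 6 were found there among 23507 genes. RPE carries no row under its name. The unnamed gene ENSSSCG00000032311 bears the enzyme class and orthology code of ribulose-phosphate 3-epimerase, which is the activity of RPE, and its values are given apart from the members.

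The oocytes were wild type and had been matured in culture to metaphase II (MII), the stage at which an egg waits for fertilisation. In the group heat stress plus L-Asp, germinal vesicle stage oocytes were held at 41.5 °C for 24 h with L-Asp in the medium and then at 38.5 °C until MII. The heat stress group had the same temperatures without L-Asp, and the control group had the standard culture at 38.5 °C. L-Asp commonly abbreviates L-aspartic acid. The labels list 0.5, 1.0 and 1.5 mmol/L of it without saying which concentration was sequenced. All oocytes were selected with cumulus cells around them and matured in medium with follicular fluid and gonadotropins. There were 3 libraries and 25 oocytes per group. No label names separate cultures or animals behind the libraries, so the p-values cover the spread between libraries, which may be technical.

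The pathway burns glucose 6-phosphate in the cytosol. Its oxidative branch makes NADPH, the reducing agent behind glutathione recycling and lipid synthesis, and ends in ribulose 5-phosphate. Its non-oxidative branch rearranges sugar phosphates, so that ribose 5-phosphate can go to nucleotides or carbon can return to glycolysis. In oocytes and the cumulus cells around them the pathway is known as a source of both NADPH and ribose, and in mice its activity has been linked to the resumption of meiosis.

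Total counts were 41693395 to 49008681 per library in heat stress plus L-Asp, 46198885 to 53327419 in heat stress and 54965064 to 58361475 in control. The 3 control libraries nearly repeated one another. Among genes with 100 to 300 counts over a pair, the median dispersion index (1 for counts that differ by chance alone) was 4.56 to 4.82, against 43.8 to 55.0 in heat stress plus L-Asp and 69.7 to 80.2 in heat stress. Low counts piled up at 4 in every library (604 to 657 genes in control, against 318 to 351 genes at 3 counts), so 1 sequenced fragment was taken as about 4 counts, and the control libraries then differed by little more than the noise of counting fragments. They were counted as 1 sample by their mean. Oocyte markers were abundant in every library (summed level 19800 to 23000 CPM in heat stress plus L-Asp, 15650 to 20120 CPM in heat stress and 31420 to 31680 CPM in control, over 15 genes). CPM here is the count relative to library size, scaled by the trimmed mean of M values (TMM). Markers that define cumulus and granulosa cells were low: over 5 genes they summed to 2.25 to 12.9 CPM in heat stress plus L-Asp, 6.46 to 21.8 CPM in heat stress and 1.22 to 2.08 CPM in control. In such pooled material fewer cells of a type and less RNA per cell cannot be told apart, and neither can less RNA and a shorter poly(A) tail, since cDNA was primed with oligo(dT).

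The members lay at very different levels. On the FPKM scale, which the authors deposited and which corrects for gene length and library size, RPIA, which interconverts ribulose 5-phosphate and ribose 5-phosphate, measured 208, 160 and 168 in heat stress plus L-Asp, 214, 207 and 141 in heat stress, and 199, 203 and 202 in control. RPIA thus held most of the RNA of the 5 found members. It made up 77.1% to 87.9% of their summed FPKM in heat stress plus L-Asp and 84.0% to 92.2% in heat stress. In control RPIA made up 89.7% to 90.1%. It ranked between 205 and 338 from the top of all genes in the 9 libraries.

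PGD, the decarboxylating dehydrogenase that makes NADPH from 6-phosphogluconate, came next. It measured 25.5, 31.0 and 44.4 FPKM in heat stress plus L-Asp, 14.1, 19.9 and 22.9 FPKM in heat stress, and 21.3, 21.2 and 20.9 FPKM in control. RPIA lay above PGD in all 9 libraries, by 3.79 to 8.17 times in heat stress plus L-Asp, 6.16 to 15.2 times in heat stress and 9.37 to 9.67 times in control.

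The sugar-rearranging enzymes were far lower. TKT, the thiamine-dependent transketolase, averaged 2.03 ± 0.554 FPKM in heat stress plus L-Asp and 1.95 ± 0.585 FPKM in heat stress (SD, n = 3 each), against 0.936 FPKM in control. TALDO1, transaldolase, averaged 2.49 ± 1.14 FPKM in heat stress plus L-Asp and 1.54 ± 0.217 FPKM in heat stress (SD, n = 3 each), against 0.594 FPKM in control. TKT and TALDO1 did not separate beyond their spread in the heated groups: the ratio of their FPKM was 0.912 ± 0.354 in heat stress plus L-Asp and 1.29 ± 0.480 in heat stress (SD, n = 3 each). In control it was 1.58. This order depends on annotated lengths, because counts and FPKM together imply 7.49 kb for TKT and 1.61 kb for TALDO1. The distance of TKT from PGD and RPIA depends on them too, with 2.21 kb implied for PGD and 2.14 kb for RPIA. In CPM, which takes no account of length, control had 7.65 for TKT, 50.8 for PGD and 469.7 for RPIA.

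**Figure D1:**
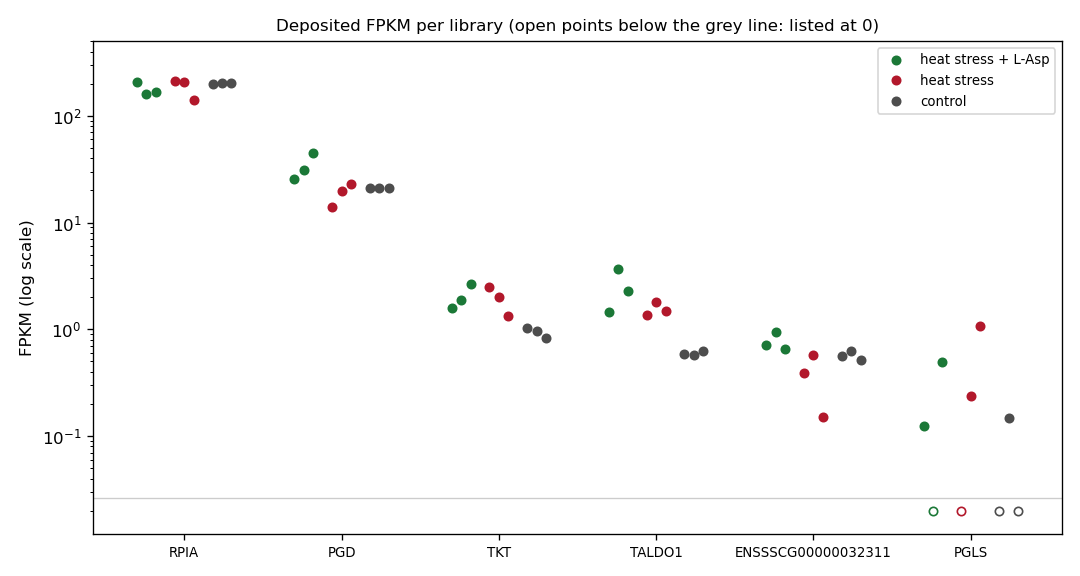
Deposited FPKM (log axis) of the 5 members and the unnamed gene with epimerase annotation, 1 point per library; open points stand for values listed at 0. RPIA and PGD lie above all other genes shown in every library, and PGLS is at 0 in 4 of the 9 libraries.

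The lactonase step of the oxidative branch was near the limit of detection. PGLS, which opens the ring of 6-phosphogluconolactone, had 9, 0 and 31 counts in heat stress plus L-Asp, 0, 16 and 83 counts in heat stress, and 0, 13 and 0 counts in control. Heat stress replicate 3, at 1.62 CPM, and L-Asp replicate 3, at 0.734 CPM, were the highest, and the groups overlapped in every comparison. A gene without a count could then still have had up to 0.243, 0.243 and 0.284 CPM in heat stress plus L-Asp, 0.243, 0.234 and 0.233 CPM in heat stress, and 0.243, 0.229 and 0.231 CPM in control, the level of 3 fragments and for counting error only. The adjusted p of PGLS was 0.976 with L-Asp in heated oocytes and 1 in both comparisons with control (edgeR). Its fold change is given only with the alternative settings, to show its instability.

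The endoplasmic reticulum dehydrogenase H6PD, picked after its values were seen, had counts in L-Asp replicates 1 and 2 alone (15 and 32). At 0.304 and 0.647 CPM these were low too, and H6PD did not pass the filter on low counts. Between the 2 oxidative members, PGLS and PGD, the RNA was PGD RNA almost throughout. The PGLS counts varied widely within heat stress, where they ran from 0 to 83.

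The first comparison sets heated oocytes given L-Asp beside heat stress alone. PGD, in the oxidative branch, stood higher with L-Asp, and the non-oxidative members showed no common direction. PGD measured 55.7, 68.3 and 99.0 CPM in heat stress plus L-Asp, against 31.5, 39.4 and 52.3 CPM in heat stress. The lowest L-Asp library lay just above the highest heat stress library, so the groups did not overlap. The log2 fold change was 0.86 ± 0.29 (SE), a fold of 1.81, with an unadjusted p of 0.0126 and an adjusted p of 0.738 by edgeR's quasi-likelihood test over 15012 genes. It did not pass. Genes higher without overlap made up 6.31% of all tested genes in this comparison, and genes with an unadjusted p under 0.05 made up 6.61%. PGD was the only member in either class, 1 of 5, and no member lay lower without overlap (5.54% of all genes). DESeq2 called 0.934% of its genes and none of the members. Of the 5 members 3 lay above 0, with a median log2 fold change of 0.09, beside 49% of all genes and a median of -0.01. PGLS, near the limit of detection, is counted among the 5 and enters the median.

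The share of counts from the mitochondrial genome was 5.30%, 9.47% and 9.29% in heat stress plus L-Asp and 3.09%, 5.18% and 14.5% in heat stress, in the order of the libraries above. Within heat stress PGD was thus lowest and highest in the libraries with the lowest and highest mitochondrial share. With L-Asp it was also lowest at the lowest share, but highest in replicate 3, at 9.29%, and not in replicate 2, at 9.47%. The part of the mitochondrial share in the PGD difference was not tested. Leaving out heat stress replicate 1 gave PGD a log2 fold change of 0.70, leaving out heat stress replicate 3 gave 1.07, and leaving out L-Asp replicate 3, the highest, gave 0.59.

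**Figure D2:**
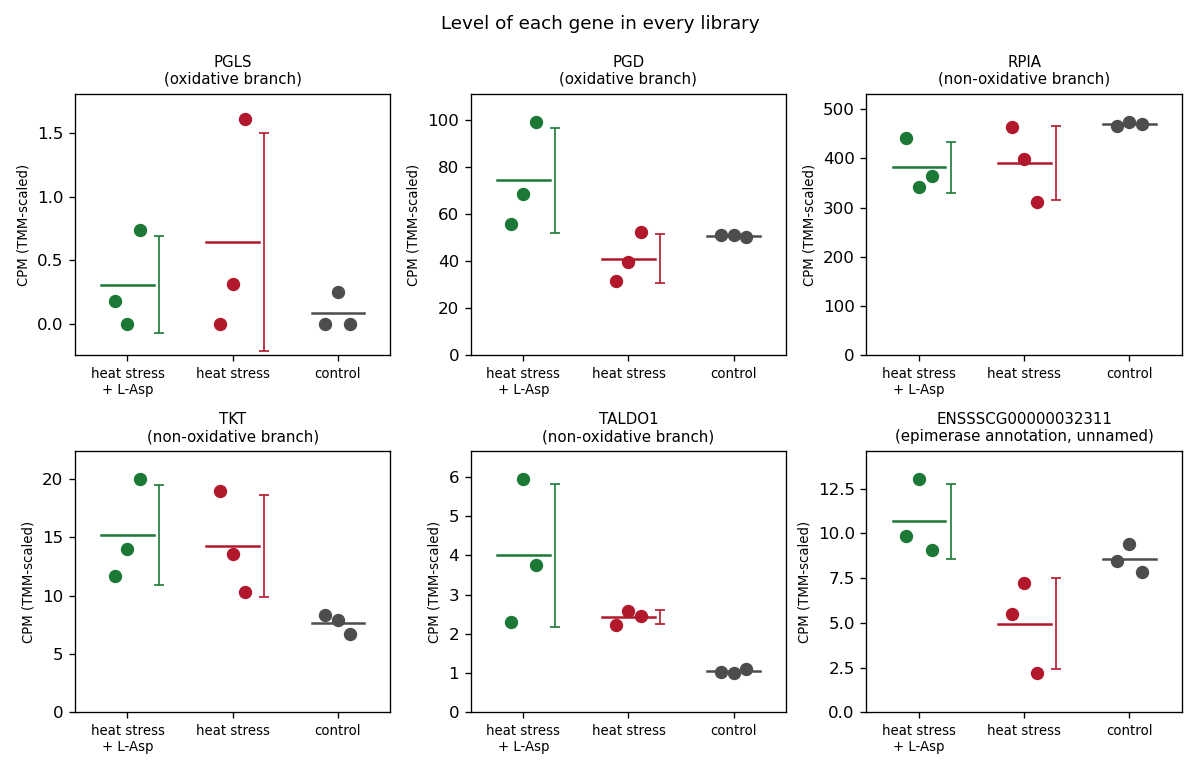
TMM-scaled CPM of each gene in every library; points are libraries, horizontal lines group means, and bars ± SD (n = 3) for the heated groups, with control libraries averaged and counted as 1 sample. The 3 L-Asp libraries of PGD sit between 55.7 and 99.0 CPM, all above the heat stress libraries, while RPIA overlaps between the heated groups.

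RPIA measured 441, 342 and 363 CPM in heat stress plus L-Asp, against 463, 398 and 312 CPM in heat stress. The ranges overlapped throughout, with a log2 fold change of -0.03 ± 0.21 (SE) and an adjusted p of 0.997 (edgeR). TKT measured 11.7, 14.0 and 20.0 CPM with L-Asp, against 18.9, 13.6 and 10.3 CPM in heat stress. These ranges overlapped too (log2 fold change 0.09 ± 0.38, SE, adjusted p = 0.991, edgeR). In heat stress the library highest in TKT was the lowest in PGD, and the library lowest in TKT was the highest in PGD. With L-Asp the 2 genes shared 1 order instead, both lowest in replicate 1 and highest in replicate 3.

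TALDO1 measured 2.31, 5.94 and 3.74 CPM in heat stress plus L-Asp, against 2.23, 2.59 and 2.45 CPM in heat stress. It was even across the heat stress libraries and spread widely with L-Asp, where replicate 1 stayed within the heat stress range (log2 fold change 0.72 ± 0.68, SE, adjusted p = 0.888, edgeR). Without L-Asp replicate 2, the highest, its log2 fold change was 0.34.

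The unnamed gene with epimerase annotation, ENSSSCG00000032311 (chromosome 15, 112723339 to 112745892), measured 9.85, 13.0 and 9.09 CPM in heat stress plus L-Asp, against 5.47, 7.23 and 2.18 CPM in heat stress. The groups did not overlap, and the log2 fold change of 1.10 ± 0.50 (SE) had an adjusted p of 0.738 (edgeR). The gene overlaps KANSL1L on the opposite strand, the protocol describes no strand marking, and counts and FPKM imply 13.8 kb for it, so reads of the neighbour cannot be told apart from its own.

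Within a library, the balance of PGD to RPIA does not depend on scaling between libraries. PGD amounted to 12.2%, 19.4% and 26.4% of RPIA FPKM in heat stress plus L-Asp, 6.60%, 9.59% and 16.3% in heat stress, and 10.7%, 10.4% and 10.3% in control. The heated groups overlapped in this measure, since heat stress replicate 3 lay above L-Asp replicate 1. Both oxidative members together made up 10.8% to 20.6% of the summed FPKM of the 5 members in heat stress plus L-Asp, 6.09% to 14.3% in heat stress and 9.31% to 9.57% in control.

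**Figure D3:**
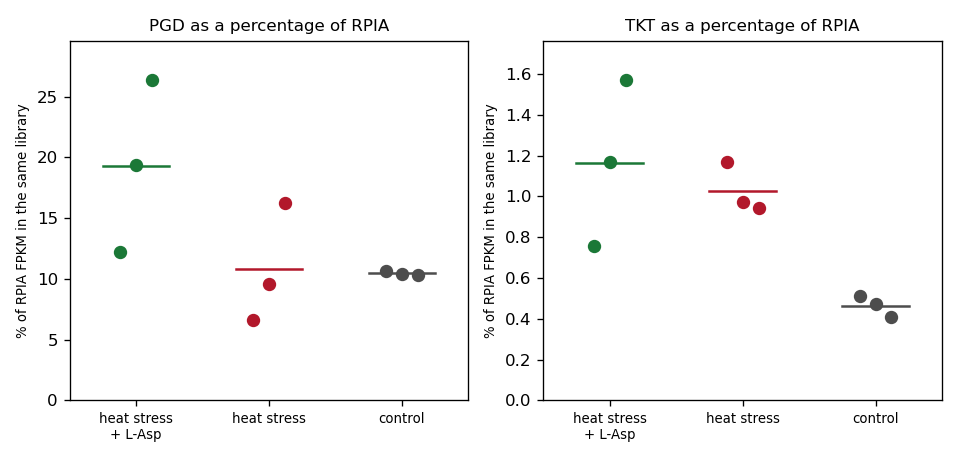
PGD and TKT as percentages of RPIA FPKM in the same library, 1 point per library with the group mean as a line. PGD reaches 26.4% of RPIA in L-Asp replicate 3, against 16.3% in the highest heat stress library, and TKT lies at 0.407% to 0.512% in control, below every heated library.

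Heat stress against control shows the oocytes after heat early in maturation. The transferases of the non-oxidative branch, TKT and TALDO1, stood higher after heat, while RPIA and PGD averaged slightly lower. The heated libraries also had counts for fewer genes (15042 to 15509 in heat stress plus L-Asp and 14730 to 15808 in heat stress, against 17433 to 17685 in control), and the mitochondrial share, given above for the heated groups, was 10.0% to 10.1% in control. The part of either in the comparisons with control was not tested. None of the 5 members passed, and 0% of all tested genes did (edgeR). An unadjusted p under 0.05 was found for 579 genes (3.86%), none of them a member, and DESeq2 called 183 genes (1.13%), again none of them a member. Of the members 3 lay above 0, with a median log2 fold change of 0.90, beside 50.1% of all genes and a median of 0.002. PGLS, near the limit of detection, is among these 3, so the median rests in part on it. TKT measured 14.3 ± 4.36 CPM after heat stress (SD, n = 3), against 7.65 CPM in control. Each heat stress library lay above the control libraries, which had 8.34, 7.90 and 6.72 CPM. The log2 fold change was 0.90 ± 0.56 (SE, adjusted p = 1, edgeR), a fold of 1.87.

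TALDO1 measured 2.42 ± 0.183 CPM after heat stress (SD, n = 3), against 1.05 CPM in control, where the libraries had 1.03, 1.01 and 1.10 CPM. The heat stress libraries lay close together and all above control (log2 fold change 1.20 ± 1.04, SE, adjusted p = 1, edgeR). Its counts were low, 110 to 133 per heat stress library against 51 to 57 per control library. Of all tested genes 17.3% lay above the averaged control in every heat stress library and 25% lay below it, beside 2 and 1 of the 5 members.

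Markers of cumulus and granulosa cells were compared in the same way. Of 29 listed markers 25 were in the table and 17 were tested, 12 of them above 0, with a median log2 fold change of 1.19 for heat stress against control. For oocytes heated with L-Asp, 12 of the 17 lay above 0 against control (median 0.40) and 6 against heat stress (median -0.27). The whole list summed to 1324 to 1359 CPM in heat stress plus L-Asp, 1337 to 1706 CPM in heat stress and 1300 to 1343 CPM in control. All 5 defining markers in the table are given here. CYP11A1, the first enzyme of steroid synthesis, had 65, 386 and 29 counts in heat stress plus L-Asp, 295, 327 and 778 counts in heat stress, and 0, 0 and 6 counts in control. STAR, which brings cholesterol into mitochondria, had 46, 93 and 41 counts in heat stress plus L-Asp, 0, 76 and 227 counts in heat stress, and 39, 35 and 59 counts in control. FSHR, the receptor for follicle-stimulating hormone, had 0, 104 and 0 counts in heat stress plus L-Asp, 0, 0 and 77 counts in heat stress, and 0, 1 and 0 counts in control. L-Asp replicate 2 and heat stress replicate 3 were thus the highest of their groups in these 3 markers. AMH, anti-Müllerian hormone, had 17, 27 and 0 counts in heat stress plus L-Asp and none in heat stress or control. CYP19A1, aromatase, had 25 to 30 counts in heat stress plus L-Asp, 24 to 37 counts in heat stress and 28 to 43 counts in control.

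The defining markers summed to 3.20, 12.9 and 2.25 CPM in the L-Asp libraries and to 6.46, 8.40 and 21.8 CPM in the heat stress libraries. TALDO1 was highest in L-Asp replicate 2, where these markers were also highest, and in heat stress it was highest in replicate 2. TKT was highest in L-Asp replicate 3, where the markers were lowest, and lowest in heat stress replicate 3, where they were highest. PGD followed the order of the markers within heat stress, but with L-Asp it was highest in replicate 3, where they were lowest. RPIA ran in the reverse order of the markers within heat stress, and with L-Asp it was lowest in replicate 2, where they were highest. The part of these cells in the differences of TKT, TALDO1, PGD and RPIA was not tested.

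RPIA measured 390.9 ± 75.7 CPM after heat stress (SD, n = 3), against 469.7 CPM in control. Its highest heat stress library, at 463 CPM, almost reached the lowest control library, at 465 CPM (log2 fold change -0.26 ± 0.29, SE, adjusted p = 1, edgeR). PGD measured 41.1 ± 10.5 CPM after heat stress (SD, n = 3), against 50.8 CPM in control, and heat stress replicate 3 lay above control (log2 fold change -0.31 ± 0.40, SE, adjusted p = 1, edgeR). The unnamed epimerase-annotated gene averaged 4.96 ± 2.56 CPM after heat stress (SD, n = 3), against 8.56 CPM in control (log2 fold change -0.79 ± 0.68, SE, adjusted p = 1, edgeR).

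**Figure D4:**
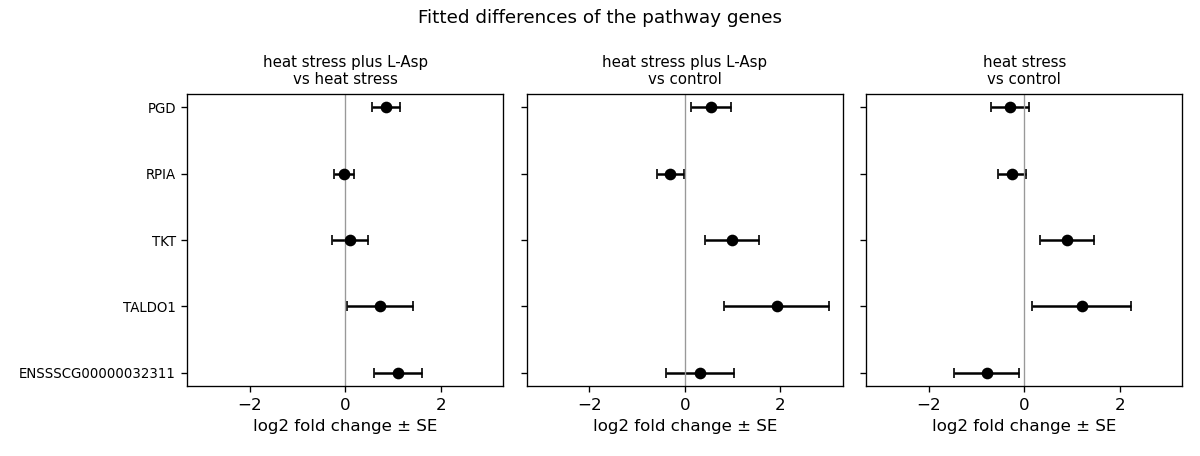
Log2 fold changes (x axis) with their standard errors for 4 members and the unnamed epimerase-annotated gene in the 3 comparisons, from edgeR; comparisons with control share the same averaged control. PGD lies at 0.86 with L-Asp against heat stress and at -0.31 for heat stress against control, and TKT and TALDO1 lie above 0 in both comparisons with control.

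The last comparison sets oocytes heated with L-Asp beside unheated ones. It shares its control with the previous one, so their likeness is no separate evidence. TALDO1 averaged 3.998 ± 1.83 CPM in heat stress plus L-Asp (SD, n = 3), against 1.05 CPM in control, a log2 fold change of 1.92 ± 1.09 (SE, adjusted p = 1, edgeR). TKT averaged 15.2 ± 4.30 CPM in heat stress plus L-Asp (SD, n = 3), against 7.65 CPM in control, with a log2 fold change of 0.99 ± 0.57 (SE, adjusted p = 1, edgeR). Both stood above control in all 3 L-Asp libraries.

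PGD averaged 74.3 ± 22.3 CPM in heat stress plus L-Asp (SD, n = 3), against 50.8 CPM in control. Each L-Asp library lay above control (log2 fold change 0.55 ± 0.42, SE, adjusted p = 1, edgeR). RPIA averaged 382 ± 52.0 CPM in heat stress plus L-Asp (SD, n = 3), against 469.7 CPM in control, and each L-Asp library lay below (log2 fold change -0.30 ± 0.29, SE, adjusted p = 1, edgeR). Again 0% of tested genes passed, 484 (3.22%) had an unadjusted p under 0.05 without a member among them, and DESeq2 called 64 genes (0.386%), none of them a member. Of the members 4 lay above 0, with a median log2 fold change of 0.99, beside 50.5% of all genes and a median of 0.007. Here too PGLS, near the limit of detection, is among the 4 and enters the median. Above the averaged control in every L-Asp library lay 19% of tested genes and below it 26%, beside 3 and 1 of the 5 members.

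Other genes of the pathway and its surroundings were read from 4 lists, in which no gene passed in any comparison (edgeR). Of 17 other pentose phosphate genes, 15 were in the table and 10 were tested. With L-Asp against heat stress 8 of these 10 lay above 0, with a median log2 fold change of 0.48, beside 49% of all genes above 0 and a median of -0.01. None of the 10 lay higher without overlap, beside 6.31% of all genes, and none had an unadjusted p under 0.05 (edgeR), beside 6.61%. FBP1, fructose bisphosphatase, had 0, 0 and 37 counts in heat stress plus L-Asp and no count in any heat stress library. With FBP1 at the bound that 3 fragments per library allow, the median was 0.37. The transketolase relative TKTL1, also among the 8, averaged 1.10 ± 1.03 CPM in heat stress plus L-Asp and 0.766 ± 0.760 CPM in heat stress (SD, n = 3 each). The number above 0 thus rests in part on genes with few counts. PGM2, which converts ribose 1-phosphate to ribose 5-phosphate, averaged 19.5 ± 4.54 CPM in heat stress plus L-Asp and 11.99 ± 5.17 CPM in heat stress (SD, n = 3 each; adjusted p = 0.746, edgeR).

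For heat stress against control 5 of the 10 lay above 0 and 5 below. PRPS1, which turns ribose 5-phosphate into the nucleotide precursor PRPP, averaged 55.1 ± 15.2 CPM after heat stress (SD, n = 3), against 29.8 CPM in control (log2 fold change 0.89 ± 0.40, SE, adjusted p = 1, edgeR). IDNK, gluconate kinase, averaged 7.001 ± 3.79 CPM after heat stress (SD, n = 3), against 19.6 CPM in control (log2 fold change -1.48 ± 0.61, SE, adjusted p = 1, edgeR). For heat stress plus L-Asp against control 6 of the 10 lay above 0, among them the transketolase relative TKTL1. TKTL1 had 18, 113 and 28 counts in heat stress plus L-Asp, 75, 40 and 0 counts in heat stress, and none in control.

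Of 14 genes listed for other sources of NADPH, 13 were in the table. These summed to 1055 to 1134 CPM in heat stress plus L-Asp and 870.2 to 1198 CPM in heat stress. In control the sum was 1233 to 1252 CPM. Not all of the listed enzymes make NADPH, so the sum is no measure of its supply. The largest part of the sum was ME2, a mitochondrial malic enzyme, named after its values were seen. ME2 averaged 616 ± 55.2 CPM in heat stress plus L-Asp and 580.2 ± 135 CPM in heat stress (SD, n = 3 each), against 762 CPM in control. Of 12 tested genes 7 lay above 0 with L-Asp against heat stress, with a median log2 fold change of 0.04. NADK, which makes the NADP+ that PGD reduces, averaged 107 ± 32.6 CPM in heat stress plus L-Asp and 67.3 ± 20.7 CPM in heat stress (SD, n = 3 each), with a log2 fold change of 0.67 ± 0.30 (SE, adjusted p = 0.738, edgeR). The cytosolic isocitrate dehydrogenase IDH1 averaged 41.3 ± 10.0 CPM in heat stress plus L-Asp, 52.9 ± 5.18 CPM in heat stress (SD, n = 3 each) and 33.6 CPM in control.

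For heat stress against control 4 of the 12 lay above 0 (median log2 fold change -0.17), and for heat stress plus L-Asp against control 7 did (median 0.03). ALDH1L2, the mitochondrial formyltetrahydrofolate dehydrogenase, averaged 14.0 ± 6.53 CPM in heat stress plus L-Asp and 11.2 ± 3.95 CPM in heat stress (SD, n = 3 each), against 24.6 CPM in control.

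Among 7 tested users of NADPH, 3 lay above 0 with L-Asp against heat stress, 2 for heat stress against control and 1 for heat stress plus L-Asp against control, with medians of -0.10, -0.30 and -0.28. TXNRD1, the cytosolic thioredoxin reductase, averaged 29.9 ± 7.84 CPM in heat stress plus L-Asp and 50.3 ± 20.3 CPM in heat stress (SD, n = 3 each; log2 fold change -0.75 ± 0.34, SE, adjusted p = 0.738, edgeR). POR, which passes electrons from NADPH to cytochromes P450, averaged 15.4 ± 6.86 CPM in heat stress plus L-Asp and 10.5 ± 3.43 CPM in heat stress (SD, n = 3 each; adjusted p = 0.834, edgeR). AKR1B1, aldose reductase, averaged 97.7 ± 29.0 CPM after heat stress (SD, n = 3), against 121 CPM in control. NQO1, a quinone reductase, was low, at 0.121 ± 0.210 CPM in heat stress plus L-Asp and 0.383 ± 0.197 CPM in heat stress (SD, n = 3 each), against 0.917 CPM in control.

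Among 5 tested users of PRPP, 1 lay above 0 with L-Asp against heat stress, 3 for heat stress against control and 2 for heat stress plus L-Asp against control. PPAT, the first enzyme of purine synthesis, averaged 30.1 ± 4.82 CPM in heat stress plus L-Asp, 50.3 ± 22.1 CPM in heat stress (SD, n = 3 each) and 59.9 CPM in control. The pyrimidine enzyme UMPS averaged 52.0 ± 12.2 CPM after heat stress (SD, n = 3), against 41.0 CPM in control. HPRT1, which salvages purine bases, averaged 45.2 ± 13.3 CPM in heat stress plus L-Asp and 51.9 ± 2.77 CPM in heat stress (SD, n = 3 each), against 57.5 CPM in control.

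Likeness of pattern was measured as the root mean square difference of centred log2 CPM over 7 libraries (the averaged control and 6 heated), among 5758 named genes with a mean of at least 10 CPM over these libraries. RPIA lay nearest to RAB3GAP1, a subunit of a Rab3 regulator, at 0.033, where its own spread over the libraries was 0.212. RAB3GAP1 measured 88.7, 71.3 and 73.7 CPM in heat stress plus L-Asp, against 92.7, 83.2 and 61.6 CPM in heat stress. Nearest genes were picked over these same libraries, so a shared order of libraries follows largely from the choice. How near a best match would come by chance was not tested. PGD lay nearest to MAPT, the microtubule-associated protein tau, at 0.093 (own spread 0.492), followed by PURA at 0.105. MAPT measured 998, 1235 and 1857 CPM in heat stress plus L-Asp, against 575, 803 and 884 CPM in heat stress. TKT lay nearest to the prefoldin subunit PFDN6 at 0.170 and the ubiquitin-conjugating enzyme UBE2B at 0.192, and TALDO1 to SMIM27 at 0.259 and the transcription factor subunit TAF10 at 0.295. PGLS, at its low counts, had no close match (LDAF1 at 1.33 was the nearest).

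Each found member lies in its own stretch of the genome without overlap with another gene in the table. In the table's coordinates, with the build not stated in the labels or headers used here, PGD (ENSSSCG00000003402) spans chromosome 6 from 70675815 to 70692679 and RPIA (ENSSSCG00000008207) chromosome 3 from 57355975 to 57386939. TKT (ENSSSCG00000021408) spans chromosome 13 from 35348915 to 35377587. TALDO1 (ENSSSCG00000012847) and PGLS (ENSSSCG00000013878) share chromosome 2, at 464728 to 472835 and 60187755 to 60197648.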

How the data were processed

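Polyadenylated RNA of 9 libraries was measured. Per the labels' protocols, oligo(dT)-primed cDNA was PCR-amplified before fragmentation and paired-end sequencing, and neither strand marking nor molecular identifiers are described, so floors cover counting error only. Per the file headers, the deposited table holds raw counts per gene, used as deposited, and FPKM values computed by the authors. Tools listed in the submitters' processing notes, with no role given, are StringTie 2.1.6, edgeR, HISAT2 2.2.1, cutadapt 1.9 and DESeq2. A further 6 columns of per-sample values were not used.

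The members and gene lists were chosen with earlier results of these data known. The control libraries were averaged, rounded and used as 1 library, so 7 libraries entered the fit and left 4 residual degrees of freedom; the lone control is assumed to vary like the heated groups. Genes were filtered with filterByExpr on 9 libraries (15012 kept), scaled by TMM and tested with edgeR 4.0.16 (glmQLFit with robust = TRUE, glmQLFTest) under R 4.3.3, adjusted by Benjamini-Hochberg over all tested genes, with calls under 0.05. All 5 found members passed the filter. Each control library's CPM used the scaling factor of the averaged library. DESeq2 1.42.0, other scalings and filters, single libraries left out and a block on the replicate number served as alternatives. All members were named, and of each list the 2 genes of smallest unadjusted p in a comparison as values, with a few further genes marked as picked later. No promoter or protein sequences were used here, and 1 gene of the lists is not reported here.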

Additional observations from a re-analysis of the deposited data

How the results depend on the processing

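None of the 5 members, nor the unnamed epimerase-annotated gene, passed in any comparison under any alternative. The lowest adjusted p of PGD with L-Asp in heated oocytes was 0.236 over 18 alternatives, and its log2 fold change stayed within 0.59 to 1.07. The lowest adjusted p of any member was 0.102, for TALDO1 in heat stress plus L-Asp against control with the 3 control libraries as replicates. Directions against control held for PGD, RPIA, TKT and TALDO1. With L-Asp against heat stress, values near 0 changed sign when 1 library was left out: RPIA ranged from -0.16 to 0.11 and TKT from -0.15 to 0.35. PGLS changed sign as well, from -2.78 to 0.96, but its main value was not near 0. That value was -1.07 ± 2.38 (SE), so the direction of PGLS was not determined. PGLS also turned to 0.43 with the replicate block in the fit of 9 libraries. Over all genes, the numbers of genes called, 0 each for heat stress against control, L-Asp against heat stress alone and L-Asp with heat against control, became 433, 2 and 269 with the control libraries as 3 replicates, 183, 179 and 64 with DESeq2, and 9, 2 and 3 without a filter. The filter recomputed on 7 libraries gave 2 for L-Asp against heat stress. Single libraries left out gave 0 to 1, 0 to 3 and 0 to 1. The counts above 0 came without heat stress replicate 1 (1, 2 and 1), heat stress replicate 3 (1, 3 and 0), L-Asp replicate 1 (0, 1 and 1) and L-Asp replicate 2 (1, 1 and 0). The replicate block in the fit of 9 libraries gave 378, 0 and 223. Same-numbered libraries correlated at -0.024 to 0.051 in their deviations from group means, and different-numbered ones at -0.043 to 0.034. Pairs with a control library could show little, since the control libraries nearly repeated one another. Whether the numbers pair the samples is therefore not known. In the 6 heated libraries alone the block called 0 genes. The cause of these differences was not tested. Scaling by library totals moved the median of all genes to 0.19 for heat stress and 0.18 for heat stress plus L-Asp, each against control, and gave 45.7 CPM for PGD in control. PGLS had 0 counts in 4 of 9 libraries and ran from 0 to 83 counts within heat stress, and no statement is made on its change.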
